A study of Mus musculus with 16 samples.

Results

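Livers of 6-month-old mice taken 6 days after a dose of diethylnitrosamine (DEN) were compared with livers of untreated mice of that age. The 5 libraries were chosen by their labels, 3 for day 6 and 2 for the controls, out of 16 RNAseq libraries in the series. Each library was a pool of RNA from 3 mice, so the spread between libraries is a spread between pools and not between single animals. All mice were wild-type C57BL/6 males, DEN was injected intraperitoneally, and the dose was 25 mg/kg by the labels and 25 mg/g by the methods. The controls were labelled as time 0 and received no DEN, so no vehicle control or control taken on the same day stands beside day 6. The same controls also serve day 2 after DEN (3 libraries), and 1-month-old mice (1 month by the methods, 3 to 4 weeks by the sample labels) were sampled in the same way, with 2 control libraries and 3 at day 6. The question put by the study was how age changes the liver's response to this DNA damage.

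DEN is made reactive by cytochrome P450 enzymes of hepatocytes and then transfers alkyl groups to DNA. DNA damage activates the kinases ATM and ATR, which stabilize the transcription factor p53, otherwise bound and ubiquitinated by Mdm2. p53 binds response elements made of a pair of similar 10-letter motifs and raises genes that arrest the cell cycle, remove or repair damaged cells and DNA, and switch p53 off again.

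Total counts were 21475231 and 34459774 in the controls and 25272265, 19039330 and 33828996 at day 6, and mitochondrial genes held 4.33% to 5.28% of the counts in these 5 libraries. Levels are given below as CPM, which are counts scaled to a common library size, in the order of the replicate numbers. The labelled tissue was checked against 16 hepatocyte markers, whose summed level was 53115 to 53476 CPM in the controls and 49071 to 51683 CPM at day 6. Libraries of the series differed in the level of circadian clock genes, and a score of these genes was 1.14 and 1.59 in the controls against 3.84, 1.23 and 0.278 at day 6, so the ranges overlapped. Where a level differs in whole liver, fewer cells of a type and less RNA per cell cannot be told apart.

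Among 15684 genes tested, 30 were higher at day 6 than in the controls and 9 were lower, at an adjusted p under 0.1 (edgeR quasi-likelihood, Benjamini-Hochberg). These are 0.191% and 0.0574% of the genes tested and 0.249% together. The genes with the smallest adjusted p were Gria3, Aatk, Atp8b5, Ddit4l and 2410089E03Rik, and the best known p53 target, Cdkn1a, rose 20.1-fold. In all 30 genes that rose, the 3 day 6 libraries lay above both controls, and in all 9 that fell they lay below. Of all genes tested, 9.53% had every day 6 library above both controls and 9.97% had every one below, so a gap between the groups alone is common with so few libraries. Before adjustment, 469 genes (2.99%) had p under 0.05, fewer than the 5% that evenly spread p-values would give. The median log2 fold change of all genes was -0.00203, a centre that the scaling of the libraries sets.

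**Figure D1:**
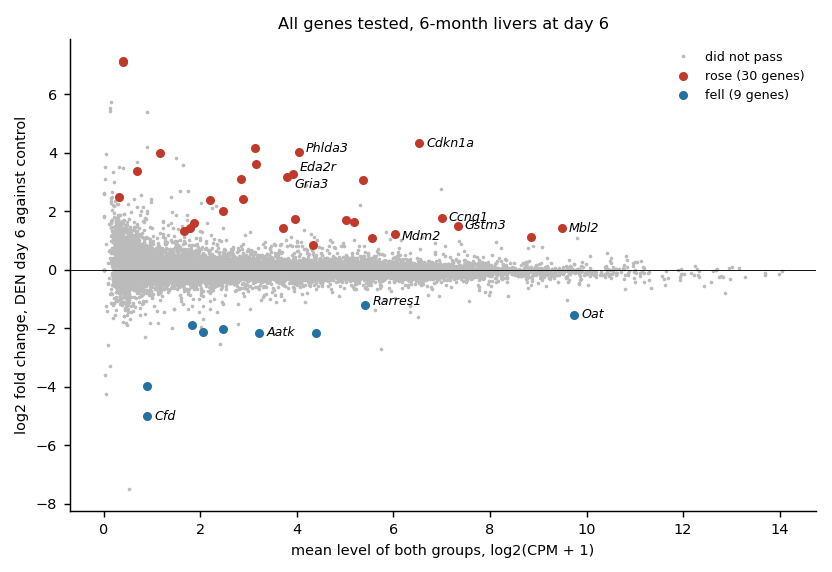
The log2 fold change of day 6 against control in 6-month livers (y axis) is plotted against the mean level of each gene in log2 CPM (x axis), with 1 point for each of the 15684 genes tested. Red points are the 30 genes that rose and blue points the 9 that fell, which range from low to high mean level, and most other genes lie around 0.

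Calls depended on single libraries. Without control replicate 1 or 2, 26 and 9 genes passed, and without day 6 replicate 1, 2 or 3, 13, 23 and 14 genes passed. Of the 39 genes, 9 kept their call without any of these libraries (Gria3, Aatk, Atp8b5, Ddit4l, 2410089E03Rik, Plk2, Ddias, Sulf2 and Exoc4) and 30 lost it without at least 1 of them, while no fold change changed its direction. For a single gene, an exact permutation test of 3 against 2 libraries cannot go below p = 0.1, since there are 10 splits, so each adjusted p rests on a spread shared with the other groups and genes.

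Among genes that control p53, the 1 that passed was Mdm2, the ubiquitin ligase that marks p53 for breakdown and is itself a p53 target. Mdm2 (chromosome 10, 117688888 to 117710758, - strand, GRCm38) was at 39.1 and 37.4 CPM in the controls and 95.8, 78.6 and 96.5 CPM at day 6, and it rose 2.36-fold (log2 fold change 1.24, SE 0.21, adjusted p = 0.0292). Trp53, which encodes p53, was at 17.2 and 17.3 CPM in the controls and 15.3, 19.7 and 20.1 CPM at day 6, and its day 6 libraries lay on both sides of the controls (log2 fold change 0.09, SE 0.21). Mdm4, the partner of Mdm2, had a log2 fold change of 0.35 (SE 0.20, adjusted p = 1). Of 16 p53 regulators and damage kinases tested, Mdm2 passed and 15 did not, and the median log2 fold change was 0.107. Of the 16, 12 were positive, and 6, with Mdm4 among them, lay above both controls in every day 6 library. None lay below, where 9.53% of all genes lay above and 9.97% below. The level of an mRNA does not show the amount or modification of the p53 protein. Mdm2 did not pass when any library other than day 6 replicate 2 was left out, with a highest adjusted p of 0.51.

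Of 16 p53 targets that act in growth arrest, 3 rose and none fell, where 0.191% of all genes tested rose and 0.0574% fell. Their median log2 fold change was 0.902. Cdkn1a encodes p21, which inhibits cyclin-dependent kinases. It was at 10.2 and 7.197 CPM in the controls, at 197, 129 and 198 CPM at day 6 and at 166, 112 and 214 CPM at day 2. Every treated library stood more than 10 times above the higher control, and the rise at day 6 was 20.1-fold (log2 fold change 4.33, SE 0.80, adjusted p = 0.0525). Ccng1, which encodes cyclin G1, a binding partner of protein phosphatase 2A, was at 61.02 and 53.9 CPM in the controls and 223, 173 and 192 CPM at day 6 (rise 3.42-fold, log2 fold change 1.77, SE 0.30, adjusted p = 0.0292). Plk2, a polo-like kinase, was at 15.3 and 14.7 CPM in the controls and 52.8, 46.1 and 45.8 CPM at day 6, a rise of 3.22-fold (log2 fold change 1.69, SE 0.19, adjusted p = 0.00135). Within the day 6 group, the spread of Ccng1 and Plk2 was small beside the gap to the controls. Psrc1, a spindle protein and the nearest of the list to the threshold, was at 0.4202 and 0.626 CPM in the controls and 3.84, 1.97 and 4.56 CPM at day 6 and did not pass (adjusted p = 0.104), although the groups did not overlap. Cdkn1a and Ccng1 did not pass when any library other than day 6 replicate 2 was left out, with a highest adjusted p of 0.792 for Cdkn1a and 0.535 for Ccng1. Leaving out any 1 of the 5 libraries kept the call of Plk2, with a highest adjusted p of 0.067. Cdkn1a (adjusted p = 0.101) also lost the call with robust moderation.

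Promoters of Cdkn1a and Ccng1 are shown because they were the ones among the genes that passed in which a p53 response element was found. Windows of 250 bases before each annotated start, from RefSeq on GRCm38.p6, were found for 30 of the 39 genes (51 windows, as some genes have several starts). Each is printed 5′ to 3′ on the strand of the gene, with the 20 bases of the element in capitals. The Cdkn1a window is chr17:29090729-29090978 on the + strand and the Ccng1 window is chr11:40755287-40755536 on the - strand.
Cdkn1a: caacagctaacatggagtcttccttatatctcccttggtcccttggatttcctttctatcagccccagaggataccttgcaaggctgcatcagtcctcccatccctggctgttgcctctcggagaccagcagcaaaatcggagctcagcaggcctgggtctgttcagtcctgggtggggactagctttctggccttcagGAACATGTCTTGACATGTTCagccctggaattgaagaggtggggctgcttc
Ccng1: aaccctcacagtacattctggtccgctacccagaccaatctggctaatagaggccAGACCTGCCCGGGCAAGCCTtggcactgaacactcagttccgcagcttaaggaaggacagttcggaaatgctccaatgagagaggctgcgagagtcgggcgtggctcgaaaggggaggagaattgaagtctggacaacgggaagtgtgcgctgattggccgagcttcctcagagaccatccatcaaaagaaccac
In Cdkn1a the element lay at bases -51 to -32 from the start that follows this window, and in Ccng1 at -195 to -176. That Cdkn1a start is where the annotated gene begins (base 29090979). Cdkn1a had 2 windows, and the other, before a different annotated start, held no p53 element. Each had its 10-letter motifs side by side and 1 mismatch, where the search allowed 2 mismatches in all and a spacer of 0 to 13 bases, on both strands. A p53 element was found in 2 of 30 genes (6.67%), against 3.87% of 27025 genes with such windows, and motifs with no spacer between them in 0.329% of those 27025. The E-box CACGTG, which reads the same on both strands, was in 3 of 30 genes (10%, Aatk, Aen and Ptpdc1) against 6.86% of all. TGACNNNGC, the antioxidant response element, was in 5 (16.7%) against 11.5%, and TGACTCA, the AP-1 site, in 3 (10%) against 5.16%, on either strand, and these last patterns can overlap. No match says only that these letters are not in this window, since many known p53 elements lie in introns or farther away, and a match shows no binding.

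Of 18 p53 targets that act in apoptosis or as death receptors, 5 rose and none fell, beside 0.191% and 0.0574% of all genes tested. Their median log2 fold change was 0.326. Eda2r, a receptor of the TNF receptor family for ectodysplasin A2 (chromosome X, 97333840 to 97377216, - strand), was at 2.75 and 2.503 CPM in the controls and 30.4, 20.4 and 25.9 CPM at day 6, a 9.76-fold rise (log2 fold change 3.29, SE 0.45, adjusted p = 0.00527). Tnfrsf10b, the mouse death receptor for TRAIL, was at 1.03 and 1.28 CPM in the controls and 6.68, 3.68 and 7.76 CPM at day 6 (5.2-fold, log2 fold change 2.38, SE 0.39, adjusted p = 0.0282). Both receptors thus went from low levels in untreated liver to levels several times higher, with no overlap of the libraries. Aen, an apoptosis-enhancing nuclease, was at 17.5 and 17.5 CPM in the controls and 64.6, 41.1 and 55.3 CPM at day 6 (3.07-fold, log2 fold change 1.62, SE 0.27, adjusted p = 0.0292). Phlda3, which binds membrane phosphoinositides and restrains Akt, was at 1.96 and 1.62 CPM in the controls and 36.5, 24.6 and 26.3 CPM at day 6 (16.4-fold, log2 fold change 4.03, SE 0.78, adjusted p = 0.0715). Ddias, known as a suppressor of apoptosis after DNA damage, was at 1.91 and 2.08 CPM in the controls and 11.1, 9.08 and 11.97 CPM at day 6 (5.36-fold, log2 fold change 2.42, SE 0.29, adjusted p = 0.00153). So the 5 that rose include genes known to promote death and a gene known to hold it back.

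The BH3-only genes that start mitochondrial apoptosis were not among those that passed, and they are named here with Fas and Bax after their values were seen. Bbc3 (Puma) had a log2 fold change of -0.24 (SE 0.50) and Pmaip1 (Noxa) of -0.10 (SE 0.46), and Fas, a death receptor, of 0.03 (SE 0.31). Bax, the pore-forming effector, was at 16.6 and 15.9 CPM in the controls and 38.02, 31.4 and 29.5 CPM at day 6, with no overlap of the groups, but did not pass (log2 fold change 1.02, SE 0.26, adjusted p = 0.346). Of 24 genes of the intrinsic apoptosis machinery tested, none passed by edgeR or by DESeq2, 1 had an unadjusted p under 0.05, 9 had a positive fold change and the median was -0.0581. Without control replicate 2 the call of Eda2r was lost, with a highest adjusted p of 0.251. Tnfrsf10b and Aen did not pass when any library other than day 6 replicate 2 was left out, with a highest adjusted p of 0.409 for Tnfrsf10b and 0.458 for Aen. The call of Phlda3 was lost when any 1 of the 5 libraries was left out, with a highest adjusted p of 0.938. Leaving out any 1 of the 5 libraries kept the call of Ddias, with a highest adjusted p of 0.067. Tnfrsf10b (adjusted p = 0.155) also lost the call with only the compared groups fitted. Phlda3 (adjusted p = 0.112) also lost the call with robust moderation. Phlda3 (adjusted p = 0.116) also lost the call with a replicate block.

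Among 30 p53 targets in metabolism, repair and other roles, 4 rose and none fell (median log2 fold change 0.321), where 0.191% of all genes tested rose. Ddit4l, an inhibitor of mTOR signaling, was at 1.26 and 1.34 CPM in the controls and 12.1, 9.84 and 11.4 CPM at day 6 (8.51-fold, log2 fold change 3.09, SE 0.31, adjusted p = 0.000428). Sulf2, an enzyme that removes sulfate from heparan sulfate outside the cell, was at 6.12 and 7.197 CPM in the controls and 22.98, 21.1 and 23.2 CPM at day 6 (3.36-fold, log2 fold change 1.75, SE 0.22, adjusted p = 0.00218), and it overlaps the gene Ncoa3. Polk encodes DNA polymerase kappa, which copies past bulky lesions in DNA. It was at 6.72 and 6.49 CPM in the controls and 20.03, 13.7 and 19.3 CPM at day 6 (2.68-fold, log2 fold change 1.42, SE 0.23, adjusted p = 0.0255). Lif, a cytokine of the interleukin 6 family, had 8 counts in the controls together and 186 at day 6, at 0.1401 and 0.142 CPM in the controls and 3.26, 2.32 and 1.48 CPM at day 6 (adjusted p = 0.0332), and no fold change is given for so few control counts. Leaving out any 1 of the 5 libraries kept the call of Ddit4l and Sulf2, with a highest adjusted p of 0.037 for Ddit4l and 0.067 for Sulf2. Polk did not pass when any library other than day 6 replicate 2 was left out, with a highest adjusted p of 0.412. Without control replicate 1, control replicate 2 or day 6 replicate 1 the call of Lif was lost, with a highest adjusted p of 0.613. Polk (adjusted p = 0.109) and Lif (adjusted p = 0.107) also lost the call with only the compared groups fitted.

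Repair genes outside this list did not pass. Mgmt, which removes alkyl groups from guanine directly, was at 14.2 and 13.3 CPM in the controls and 28.2, 25.6 and 21.3 CPM at day 6, all above the controls but short of the threshold (log2 fold change 0.86, SE 0.30, adjusted p = 1). None of 24 genes of direct and base excision repair passed (median log2 fold change 0.105), none of 24 of mismatch and nucleotide excision repair (median 0.0938), and none of 29 of double-strand break repair (median 0.0469). By edgeR these lists held 1, 2 and 0 genes at an unadjusted p under 0.05, and by DESeq2 none passed either. In the same order, 7, 8 and 4 genes lay above both controls in every day 6 library, and 1, 1 and 3 lay below. Of all genes tested, 9.53% lay above and 9.97% below.

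Over all p53 targets, 66 were listed, 64 were tested and 12 rose, where 0.191% of all genes tested rose, and none fell. The list was written with names reported for these samples known, so its count is not independent evidence of its direction. The median log2 fold change of the 64 was 0.426, beside -0.00203 for all genes, and 48 were positive, where 49.6% of all genes were. Of the 64, 35 lay above both controls in every day 6 library and 5 lay below, beside 9.53% and 9.97% of all genes tested. The 52 that did not pass had a median of 0.208, with 36 positive. Of these 52, 16 had an unadjusted p under 0.05, where 2.99% of all genes tested did. The number of p53 targets that passed was 5 without control replicate 1, 4 without control replicate 2, and 5, 12 and 6 without day 6 replicate 1, 2 and 3.

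**Figure D2:**
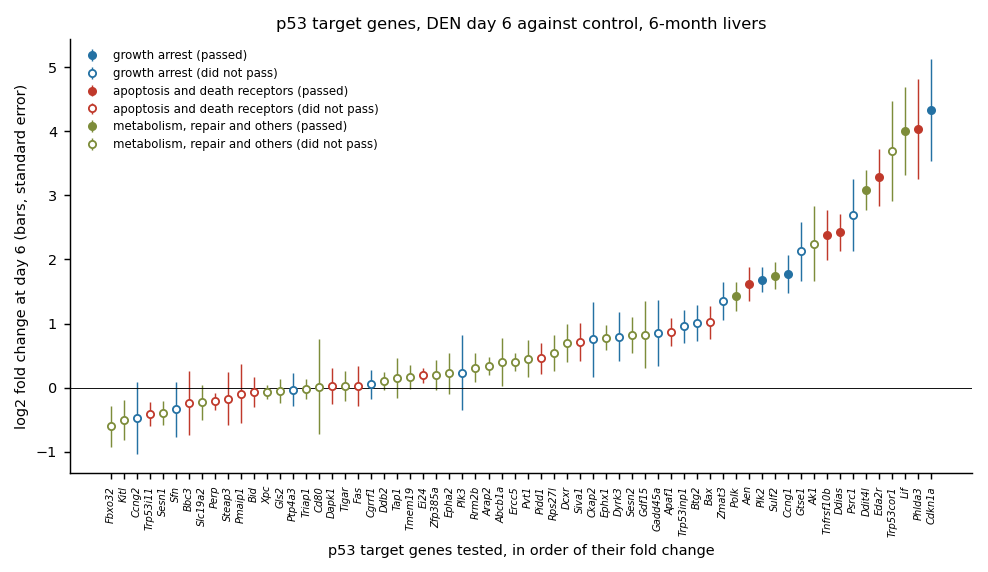
The log2 fold change of day 6 against control in 6-month livers (y axis) is shown for each of the 64 p53 targets tested. Genes are in order of fold change (x axis) and coloured by role, with bars of 1 SE. Filled points mark the 12 that passed. Cdkn1a and Phlda3 stand at the right end at 4.33 and 4.03, and the genes that did not pass spread on both sides of 0 with more on the positive side.

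The other 18 genes that rose were Mdm2 and 17 genes of various or little known roles. Gria3 (ENSMUSG00000001986, chromosome X, 41400854 to 41678601, + strand), a subunit of AMPA-type glutamate receptors, was at 2.47 and 2.65 CPM in the controls and 25.1, 19.3 and 24.9 CPM at day 6. Its day 6 libraries lay at 7 times the higher control or more, and it had the smallest adjusted p of all genes (9.01-fold, log2 fold change 3.17, SE 0.27, adjusted p = 0.000186). Atp8b5, a P4-type ATPase that moves phospholipids between membrane leaflets, was at 1.35 and 1.02 CPM in the controls and 15.96, 12.4 and 15.1 CPM at day 6 (12.3-fold, log2 fold change 3.62, SE 0.35, adjusted p = 0.000354). 2410089E03Rik, listed by RefSeq as Cplane1, a gene of ciliogenesis, was at 9.804 and 7.48 CPM in the controls and 84.5, 59.3 and 73.7 CPM at day 6 (8.42-fold, log2 fold change 3.07, SE 0.32, adjusted p = 0.000428). These 3 genes were all low in untreated liver and had tight groups. Exoc4, a subunit of the exocyst that tethers secretory vesicles, moved less but with little spread, from 28.9 and 30.9 to 64.6, 61.7 and 62.2 CPM (2.1-fold, log2 fold change 1.07, SE 0.13, adjusted p = 0.00227). Tmem43, a protein of the inner nuclear membrane, rose 1.8-fold, from 13.3 and 14.02 to 22.98, 21.8 and 28.8 CPM (log2 fold change 0.85, SE 0.17, adjusted p = 0.086). Leaving out any 1 of the 5 libraries kept the call of Gria3, Atp8b5, 2410089E03Rik and Exoc4, with a highest adjusted p of 0.0145 for Gria3, 0.037 for Atp8b5, 0.0459 for 2410089E03Rik and 0.067 for Exoc4. The call of Tmem43 was lost when any 1 of the 5 libraries was left out, with a highest adjusted p of 0.729. Tmem43 (adjusted p = 0.214) also lost the call with only the compared groups fitted. Tmem43 (adjusted p = 0.175) also lost the call with a replicate block. Tmem43 (adjusted p = 0.11) also lost the call without the 3 libraries of lowest clock score.

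Other genes that rose were higher in level or belong to families of enzymes. Mbl2, a mannose-binding lectin that starts the lectin pathway of complement (chromosome 19, 30232928 to 30239685, + strand), was the highest of the 30 in level, at 401 and 377 CPM in the controls and 1287, 894 and 951 CPM at day 6 (2.69-fold, log2 fold change 1.43, SE 0.23, adjusted p = 0.0242). Ces2e, a carboxylesterase, was at 314 and 264 CPM in the controls and 696, 570.2 and 626 CPM at day 6 (2.18-fold, log2 fold change 1.13, SE 0.21, adjusted p = 0.0525). Gstm3, a glutathione S-transferase of the mu class, was at 87.4 and 78.6 CPM in the controls and 184, 224 and 301 CPM at day 6 (2.85-fold, log2 fold change 1.51, SE 0.30, adjusted p = 0.0864). At day 2 it stood between the controls and day 6, at 142, 154 and 155 CPM. Sult2a7, of a family of hydroxysteroid sulfotransferases, was at 1.17 and 0.5405 CPM in the controls and 23.4, 11.7 and 9.41 CPM at day 6, with replicate 1 about as high as the other day 6 libraries together (18-fold, log2 fold change 4.17, SE 0.85, adjusted p = 0.0932). Ces2, Gstm and Sult2a genes have close copies, and reads could be split or shared between them. Without control replicate 1, control replicate 2 or day 6 replicate 1 the call of Mbl2 was lost, with a highest adjusted p of 0.412. The call of Ces2e, Gstm3 and Sult2a7 was lost when any 1 of the 5 libraries was left out, with a highest adjusted p of 0.841 for Ces2e, 0.981 for Gstm3 and 1 for Sult2a7. Mbl2 (adjusted p = 0.109), Ces2e (adjusted p = 0.107), Gstm3 (adjusted p = 0.115) and Sult2a7 (adjusted p = 0.107) also lost the call with only the compared groups fitted. Sult2a7 (adjusted p = 0.131) also lost the call with robust moderation. Gstm3 (adjusted p = 0.106) and Sult2a7 (adjusted p = 0.121) also lost the call with a replicate block. Gstm3 (adjusted p = 0.101) also lost the call with upper quartile scaling. Gstm3 (adjusted p = 0.146) also lost the call without the 3 libraries of lowest clock score.

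The remaining genes that rose were low in level. Ptpdc1, a protein tyrosine phosphatase, went from 1.401 and 1.08 to 3.03, 3.13 and 3.02 CPM (log2 fold change 1.31, SE 0.24, adjusted p = 0.0578). 9230114K14Rik and C130083M11Rik overlap on opposite strands and rose together (log2 fold change 1.62, SE 0.29, adjusted p = 0.0452 and log2 fold change 1.43, SE 0.27, adjusted p = 0.0688), and without knowledge of how strand was used in counting, they cannot be told apart. Gm13657 was at 1.35 and 2.22 CPM in the controls and 6.14, 6.71 and 8.95 CPM at day 6 (log2 fold change 2.00, SE 0.39, adjusted p = 0.0715). Sec14l5, of a family of lipid-binding proteins, had no count in the controls and 55 counts at day 6, which is at least 12.4-fold higher against a floor of 3 counts over the control group. Gm42790, which overlaps Phkg1, likewise had no control count and was at least 11.8-fold higher against that floor. Gm9949 and Gm26599 had 6 and 4 control counts against 88 and 34 at day 6, and no fold change is given for them. 9230114K14Rik and Sec14l5 did not pass when any library other than day 6 replicate 2 was left out, with a highest adjusted p of 0.663 for 9230114K14Rik and 0.663 for Sec14l5. The call of C130083M11Rik, Ptpdc1, Gm13657 and Gm42790 was lost when any 1 of the 5 libraries was left out, with a highest adjusted p of 0.913 for C130083M11Rik, 0.981 for Ptpdc1, 0.76 for Gm13657 and 1 for Gm42790. Gm9949 did not pass when any library other than day 6 replicate 3 was left out, with a highest adjusted p of 0.368. 9230114K14Rik (adjusted p = 0.109), C130083M11Rik (adjusted p = 0.175), Ptpdc1 (adjusted p = 0.235), Gm13657 (adjusted p = 0.122), Sec14l5 (adjusted p = 0.328), Gm9949 (adjusted p = 0.196) and Gm42790 (adjusted p = 0.206) also lost the call with only the compared groups fitted. Gm42790 (adjusted p = 0.166) also lost the call with a replicate block. Gm26599 was lost without either control or day 6 replicate 1 and was not tested without day 6 replicate 2 or 3. Gm26599 (adjusted p = 0.551) also lost the call with only the compared groups fitted. Gm26599 (adjusted p = 0.244) also lost the call with the 8 libraries of 6 months. Gm26599 (adjusted p = 0.339) also lost the call without the filter on low counts. Gm26599 (adjusted p = 0.509) also lost the call by DESeq2. Gm26599 (adjusted p = 0.165) also lost the call without the 3 libraries of lowest clock score.

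**Figure D3:**
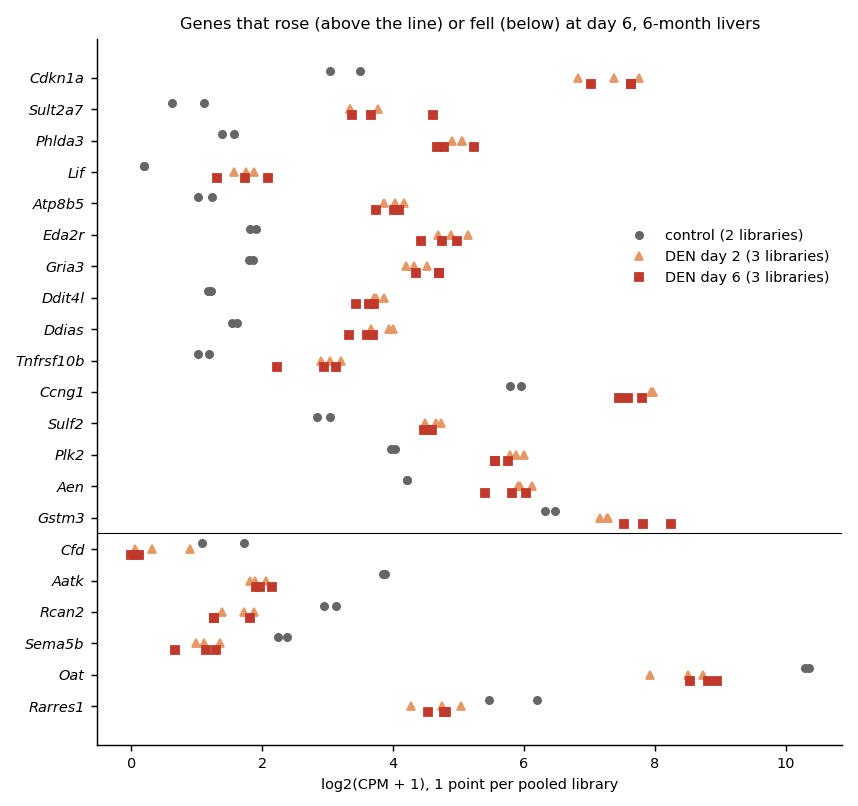
Levels in log2(CPM + 1) (x axis) of 21 genes (y axis) that passed at day 6 in 6-month livers, 15 that rose and 6 that fell, with 1 point for each library. Circles are the 2 controls, triangles the 3 day 2 libraries and squares the 3 day 6 libraries. In every gene shown the squares lie on 1 side of both circles, which was a condition for being shown.

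The 9 genes that fell were Aatk, Oat, Rcan2, Sema5b, Rarres1, Cfd, Mup-ps12, Gm13775 and Gm38392, and none of them is on the p53 lists. Aatk (ENSMUSG00000025375, chromosome 11, 120007313 to 120047167, - strand), the apoptosis-associated tyrosine kinase, was at 13.4 and 13.7 CPM in the controls and 3.45, 2.93 and 2.75 CPM at day 6 and was 4.46-fold lower (log2 fold change -2.16, SE 0.21, adjusted p = 0.000354). Oat (chromosome 7, 132557475 to 132576398, - strand), ornithine aminotransferase of the hepatocytes around the central vein, was at 1299 and 1254 CPM in the controls and 494, 446 and 370.1 CPM at day 6 (2.92-fold lower, log2 fold change -1.55, SE 0.28, adjusted p = 0.0525). It was the highest of the 9 in level, and its gene overlaps Fgfr2. Rcan2, a regulator of the phosphatase calcineurin, was at 6.72 and 7.77 CPM in the controls and 2.53, 1.41 and 1.402 CPM at day 6 (4.06-fold lower, log2 fold change -2.02, SE 0.30, adjusted p = 0.0127). Sema5b, a semaphorin, was at 3.73 and 4.21 CPM in the controls and 1.46, 1.21 and 0.593 CPM at day 6 (3.71-fold lower, log2 fold change -1.89, SE 0.37, adjusted p = 0.0837). In Rarres1, a gene induced by retinoic acid, the controls were themselves far apart, at 43.1 and 72.6 CPM, against 22.1, 27.1 and 26.4 CPM at day 6 (2.3-fold lower, log2 fold change -1.20, SE 0.24, adjusted p = 0.091). Leaving out any 1 of the 5 libraries kept the call of Aatk, with a highest adjusted p of 0.0145. The call of Oat and Sema5b was lost when any 1 of the 5 libraries was left out, with a highest adjusted p of 0.409 for Oat and 0.722 for Sema5b. Without control replicate 2 the call of Rcan2 was lost, with a highest adjusted p of 0.251. Rarres1 did not pass when any library other than control replicate 1 was left out, with a highest adjusted p of 1. Rcan2 (adjusted p = 0.122), Sema5b (adjusted p = 0.291) and Rarres1 (adjusted p = 0.242) also lost the call with only the compared groups fitted. Sema5b (adjusted p = 0.142) also lost the call with a replicate block. Sema5b (adjusted p = 0.14) and Rarres1 (adjusted p = 0.253) also lost the call with the 8 libraries of 6 months. Rarres1 (adjusted p = 0.146) also lost the call without the 3 libraries of lowest clock score.

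Cfd, complement factor D or adipsin, which fat cells make in large amounts, had 88 counts in the controls and 4 at day 6, at 2.29 and 1.11 CPM in the controls and 0.0384, 0 and 0.0809 CPM at day 6 (adjusted p = 0.091). Of the 5 adipocyte markers that could be tested it was the only one that passed, and Adipoq, Lep and Retn, which define fat cells, had no count in any of the 5 libraries, while Plin1 had 1 to 2 counts in a control and 0 to 1 at day 6. The 5 summed to 50.1 to 51.5 CPM in the controls and 30.1 to 49.5 CPM at day 6. Mup-ps12, a pseudogene of the major urinary protein family, had 8 counts at day 6 and was at 1.21 and 1.99 CPM in the controls and 0.2302, 0.0504 and 0.02695 CPM at day 6 (adjusted p = 0.0292). Gm13775, which overlaps the pseudogene Mup-ps16, was at 31.1 and 33.99 CPM in the controls and 9.55, 6.71 and 5.63 CPM at day 6 (log2 fold change -2.16, SE 0.33, adjusted p = 0.0191). Gm38392, which overlaps Tsacc and Rhbg, was at 3.13 and 7.17 CPM in the controls and 0.921, 1.36 and 1.29 CPM at day 6 (log2 fold change -2.12, SE 0.42, adjusted p = 0.0864). Mup genes are near-identical copies, so levels of these pseudogenes are uncertain. The call of Cfd was lost when any 1 of the 5 libraries was left out, with a highest adjusted p of 0.575. Without control replicate 2, day 6 replicate 2 or day 6 replicate 3 the call of Mup-ps12 was lost, with a highest adjusted p of 0.507. Without control replicate 2 or day 6 replicate 3 the call of Gm13775 was lost, with a highest adjusted p of 0.271. Gm38392 did not pass when any library other than control replicate 1 was left out, with a highest adjusted p of 1. Cfd (adjusted p = 0.107), Mup-ps12 (adjusted p = 0.175) and Gm38392 (adjusted p = 0.242) also lost the call with only the compared groups fitted. Cfd (adjusted p = 0.198) and Gm38392 (adjusted p = 0.32) also lost the call with the 8 libraries of 6 months. Gm38392 (adjusted p = 0.12) also lost the call without the 3 libraries of lowest clock score.

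Oat belongs to the pericentral hepatocyte genes, the zone in which most DEN is activated. Of 20 pericentral genes tested it was the 1 that passed, where 0.249% of all genes tested passed, and the median log2 fold change was -0.0985. Of the 20, 6 had an unadjusted p under 0.05 (2.99% of all genes did), and 9 had a positive fold change, up to 0.511. In every day 6 library, 2 lay above both controls and 6 lay below, beside 9.53% and 9.97% of all genes. Glul, the glutamine synthetase of the innermost pericentral hepatocytes, was at 1032 and 1042 CPM in the controls and 550.3, 594 and 391 CPM at day 6, all below the controls (log2 fold change -1.02, SE 0.22, adjusted p = 0.122). Cyp2e1, the main enzyme that activates DEN, was at 6557 and 7339.5 CPM in the controls and 7479, 5209 and 2994 CPM at day 6, and its groups overlapped (log2 fold change -0.41, SE 0.32). None of 28 CYP genes of DEN and xenobiotic metabolism passed by edgeR, with 2 at an unadjusted p under 0.05, and none of 22 periportal genes, with 1 (median -0.0704). DESeq2 called none in these lists and 2 pericentral genes.

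Of the 38 gene lists examined, 7 held a gene that passed and 31 held none, and over all genes 0.249% passed. Of 30 genes of NRF2 and oxidant defence, Gstm3 rose and the median log2 fold change was 0.179. Of the 30, 17 were positive, and 5 had an unadjusted p under 0.05 by edgeR (2.99% of all genes did). In every day 6 library, 15 of them lay above both controls and 4 lay below, beside 9.53% and 9.97% of all genes. None passed among 32 acute phase genes (Serpina3n, a serum serpin of the acute phase, had a log2 fold change of 0.82, adjusted p = 0.195), 26 interferon response genes, 25 genes of the unfolded protein response or 18 senescence genes, whose medians lay between -0.0951 and -0.00919. At an unadjusted p under 0.05 these lists held 3, 0, 1 and 1 genes, and DESeq2 called 1 acute phase gene and none of the others. Cell division genes, 36 in all, had a median of 0.204, none passed by edgeR or DESeq2 and none had an unadjusted p under 0.05. Male-biased liver genes, which growth hormone pulses maintain, were negative in 23 of 24, with a median of -0.264. Their summed level was 24447 to 26585 CPM in the controls and 16132 to 20199 CPM at day 6, but none passed by edgeR or DESeq2 and 4 had an unadjusted p under 0.05. A lower sum was not particular to this list. The 19 female-biased genes summed to 268 to 290 CPM in the controls and 146 to 232 CPM at day 6, with 7 positive. The 26 genes of fasting and fatty acid oxidation summed to 11863 to 13071 and 8852 to 11135 CPM, with 2 positive. The sums of the p53 target lists lay higher at day 6.

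Markers of other liver cells stayed near the control level or differed without a call. The summed level of 16 macrophage markers was 1213 to 1424 CPM in the controls and 817 to 1299.6 CPM at day 6, and that of 12 sinusoidal endothelium markers 378 to 490.2 and 281 to 411 CPM. Both ranges overlapped and 15 of 16 and 11 of 12 genes were negative. Neutrophil markers summed to 9.64 to 13.1 CPM in the controls and 6.75 to 12.1 CPM at day 6. The 11 cholangiocyte markers summed to 74.5 to 107 CPM in the controls and 121 to 158 CPM at day 6, and among them Onecut1, a transcription factor that hepatocytes also express, was at 8.12 and 19.3 CPM in the controls and 92.2, 70.7 and 28.1 CPM at day 6 (adjusted p = 0.843). Without Onecut1 the ranges of the sum overlapped. The defining keratin Krt19 had 15 to 27 counts in a control and 14 to 46 at day 6, and Epcam 26 to 37 and 22 to 48. The part of these cells in the calls above was not tested.

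**Figure D4:**
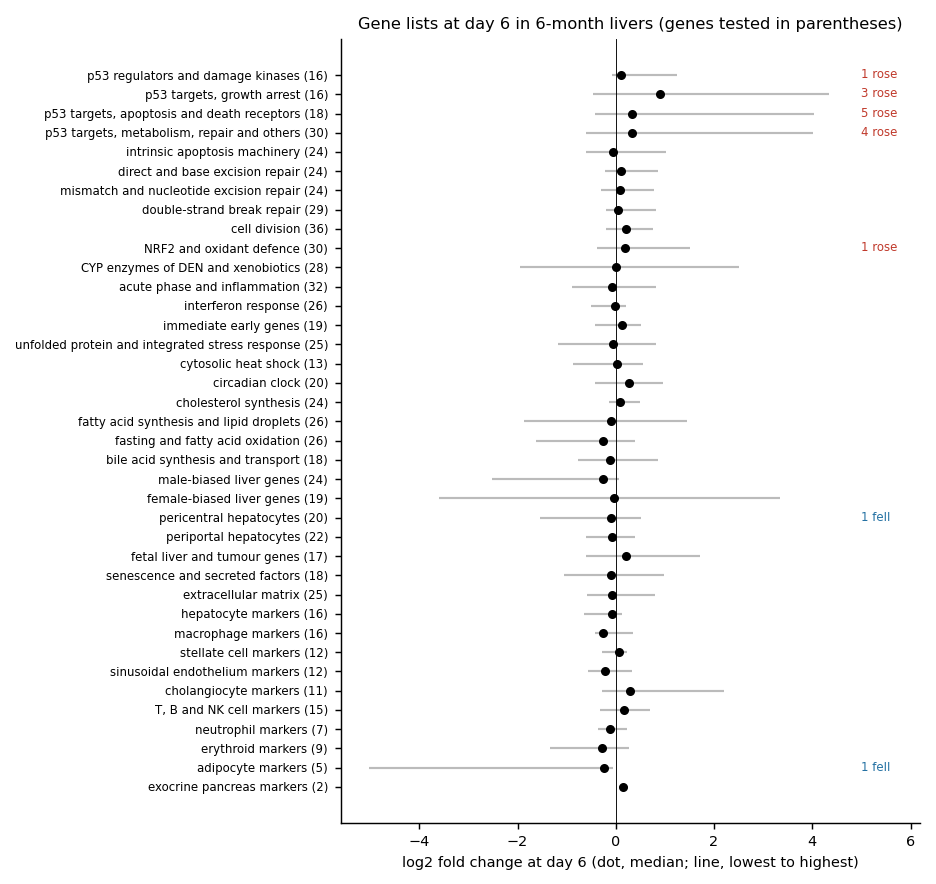
The median (point) and range (line) of the log2 fold changes of day 6 against control in 6-month livers (x axis) are given for each of the 38 gene lists (y axis). The number of genes tested stands in parentheses beside each name, and the number that rose or fell is written at the right. The p53 target lists have the highest counts of genes that passed, 3, 5 and 4, and the medians of the other 35 lists lie within 0.3 of 0.

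Day 6 and day 2 share their controls, so the fold changes against control are set side by side without a measure of likeness. The 30 genes that rose had a median log2 fold change of 2.19 at day 6 and 2.18 at day 2, and 22 of them were lower at day 6 than at day 2. The 9 that fell had a median of -2.12 at day 6 and -1.89 at day 2. None of the 39 passed the edgeR test between the days, and 3 had an unadjusted p under 0.05. The p53 targets had a median of 0.426 at day 6 and 0.45 at day 2, and the median of the direct difference was -0.0932, with 18 of 64 positive. A p that misses the threshold does not show that the days were alike, and for Cdkn1a the difference of day 6 from day 2 was 0.09 on the log2 scale with an SE of 0.58.

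Tested directly, day 6 differed from day 2 in 2 of 15684 genes (0.0128%), both lower at day 6, while DESeq2 called 3, and 269 genes (1.72%) had an unadjusted p under 0.05. Apoa4, an apolipoprotein of triglyceride-rich particles (chromosome 9, 46240696 to 46243459, + strand), was at 85.8 and 101 CPM in the controls, 199.8, 179 and 183 CPM at day 2 and 69.99, 57.2 and 60.4 CPM at day 6 (log2 difference -1.58, SE 0.24, adjusted p = 0.0797). Apoa4 thus stood above the controls at day 2 and below them at day 6. Against the controls, Apoa4 passed on neither day (log2 fold change 1.00, SE 0.27 at day 2 and -0.58, SE 0.26 at day 6). Gm10680 (chromosome 9, 46242621 to 46243529), which overlaps it, was at 43.6 and 60.8, 121, 106 and 109 and 42.4, 30.3 and 36.5 CPM (log2 difference -1.62, SE 0.24, adjusted p = 0.0797), and reads of the pair cannot be told apart without strand. No gene passed when any 1 of the 2 controls or 3 day 6 libraries was left out. Cell division genes were positive in 36 of 36, with a median of 0.912 above day 2, and 18 had an unadjusted p under 0.05, but none passed. Their summed level was 195 and 293 CPM in the controls, 241, 139 and 182 CPM at day 2 and 289, 248 and 382 CPM at day 6, so every day 6 library lay above every day 2 library, and day 6 overlapped the controls. Orm2, an acute phase glycoprotein, was at 79.8, 106 and 119.9 CPM at day 2 and 28.2, 22.6 and 40.5 CPM at day 6 (adjusted p = 0.617).

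The genes were chosen at 6 months, so their values at 1 month are a description. The 30 that rose had a median log2 fold change of 2.19 at 6 months and 0.846 at day 6 in 1-month livers, and the difference between the ages was positive for all 30, which the choice of the genes favours. The 9 that fell had medians of -2.12 and -0.148, with all 9 differences negative. Cdkn1a in 1-month livers was at 4.22 and 56.4 CPM in the controls and 90.8, 87.5 and 62.2 CPM at day 6, with the controls far apart. For the 64 p53 targets, the median was 0.426 at 6 months and 0.22 at 1 month.

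Tested as a difference of the responses over all genes, 2 genes passed (0.0128%). For Gria3 the 1-month controls were at 4.87 and 6.76 CPM and day 6 at 12.3, 10.1 and 8.1 CPM, so it started higher and ended lower than at 6 months (log2 difference of the responses 2.37, SE 0.35, adjusted p = 0.0598). Aatk was at 1.92 and 1.597 CPM in the 1-month controls and 1.63, 2.105 and 1.97 CPM at day 6, below every 6-month library (log2 difference -2.28, SE 0.32, adjusted p = 0.0598). For 8 of the 9 genes that fell, both 6-month controls lay above both 1-month controls (22.1% of all genes tested did so), and the genes were chosen for lying below these same 6-month controls, so nothing is read from this count. Among the 30 that rose, the 6-month controls lay above in 10, below in 8 and overlapped in 12. Without control replicate 1, 11 genes passed this test of the ages, 1 of them shared with the 2, and none passed without control replicate 2 or without any 1 of the day 6 libraries.

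**Figure D5:**
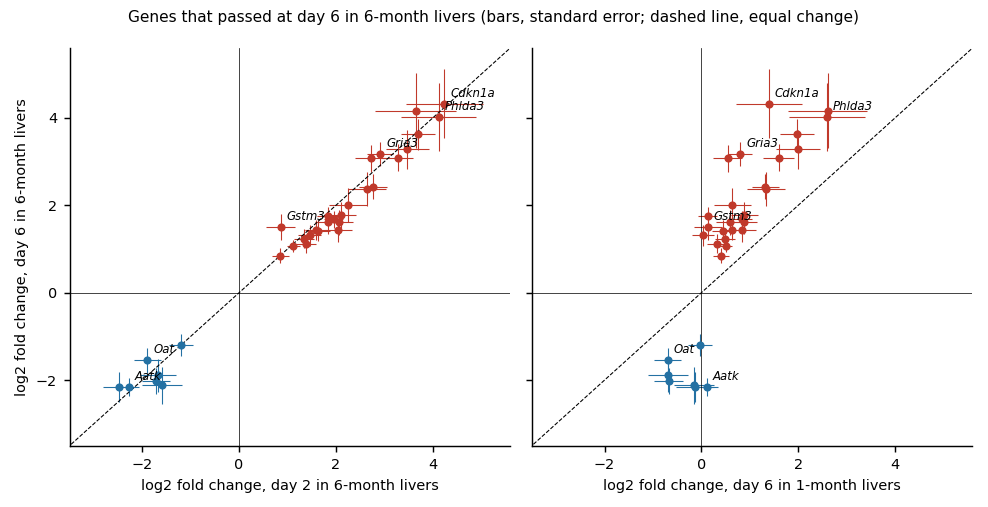
The log2 fold change at day 6 in 6-month livers (y axis) is plotted against 2 others. These are day 2 in 6-month livers (x axis, left) and day 6 in 1-month livers (x axis, right). Shown are the genes that passed at day 6 in 6-month livers with at least 20 counts in both groups. Bars are 1 SE, and the dashed line marks equal change. Points lie near the line on the left, where the controls are shared. On the right the 1-month values are nearer to 0 than the 6-month values.

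Of the 30 genes that rose, 22 had their lowest day 6 value in replicate 2, 5 in replicate 3 and 3 in replicate 1, while over all genes tested the shares with the lowest value in replicates 1, 2 and 3 were 36.4%, 28.9% and 34.7%. The median difference from the control mean in log2(CPM + 1) was 1.69, 1.31 and 1.58 in replicates 1, 2 and 3. Replicate 2 was also the library of lowest depth, and the part of depth or scaling in these values was not tested.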

How the data were processed

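RNA of pooled mouse livers was sequenced by the authors from TruSeq libraries on a NextSeq 500. Per the submitters' processing notes, reads were trimmed with cutadapt and mapped with TopHat2 2.0.13 to GRCm38 with Ensembl 84, and the notes also name Cuffnorm and Cufflinks 2.2.1. Whole-number counts of reads for each gene, without normalization, were deposited by the authors. For the counting program and its strand setting, nothing is stated in the labels, notes or methods. The same table holds 16 columns of the authors' normalized counts, along with fold changes on a log2 scale and adjusted p from the DESeq2 1.10.1 comparisons made by the authors, and none of these were used.

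Of 47729 genes, 10 without a count entry were left out. Counts were scaled by TMM, and filterByExpr kept 15684 genes. The 16 libraries in 6 groups were fitted together with edgeR 4.0.16 (glmQLFit and glmQLFTest, R 4.3.3, limma 3.58.1), since 2 controls alone estimate little spread. The common biological coefficient of variation was 0.218. p-values were two-sided and adjusted by Benjamini-Hochberg over all genes, with a threshold of 0.1. Fold changes use a prior count of 0.125, and the SE is the fold change divided by the square root of F. Folds are given with at least 20 counts in both groups, and against no count a floor of 3 counts over the group was used. Counting error and floors cover sampling of reads only. Because nothing says whether the pools were prepared independently, p-values measure the spread between these pools. Groups were taken from the labels. No 2 of the 5 libraries were duplicates, as their counts differed far beyond sampling noise (chi-square over degrees of freedom of 23.7 or more).

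On simulated counts of 15684 genes for this comparison, 70% of 2-fold, 86% of 3-fold and 98% of 5-fold changes were recovered. The simulation changed 50 genes at each fold size, all with a mean above 1 CPM. It used the fitted spreads and let no other group differ. More genes were changed than passed in the real data, which makes the adjusted threshold easier to reach. These shares therefore do not give the power for the real libraries, and a gene without a call is not shown to be unchanged. The genes and lists were chosen with earlier results of these data known. Genes are named if they rose or fell most among those that passed, up to 15 each way. These had to have at least 1 CPM, an official symbol and no overlap between the libraries of the groups. Others are named for a p among the 4 smallest in a list, or among the 10 smallest in the contrasts of days or ages. Cyp2e1, Trp53 and Mgmt are named as references. Genes that passed outside this rule (Gm and Rik genes and others), Gm10680, the keratins and other defining markers, and Bbc3, Pmaip1, Fas and Bax were added after their values were seen. Promoters came from RefSeq tables on GRCm38.p6, matched by symbol, or for 2410089E03Rik by a synonym or Ensembl identifier. Alternatives were other scalings, no filter, DESeq2 1.42.0, other sets of libraries, a replicate block, a clock covariate and leaving out each library. Python 3.11.15 and matplotlib 3.10.9 drew the figures.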

Additional observations from a re-analysis of the deposited data

Results flagged for a closer look

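The day 6 response of Gria3, an AMPA receptor subunit, differed between the ages by 2.37 on the log2 scale (SE 0.35, adjusted p = 0.0598, edgeR quasi-likelihood), with a larger rise at 6 months. The response of Aatk, the apoptosis-associated tyrosine kinase, differed by -2.28 (SE 0.32, adjusted p = 0.0598), with a fall at 6 months from a control level several times that at 1 month. Both genes were picked out by this test of the difference between groups, at 2 of 15684 genes tested.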

How the results depend on the processing

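The 39 genes at day 6 (30 higher, 9 lower) became 93 without the filter on low counts (63 and 30), 85 with DESeq2 (64 and 21) and 19 with only the compared groups fitted (15 and 4). Leaving out 1 of the 5 libraries gave 9 to 26 genes, 8 to 20 higher and 1 to 7 lower. With DESeq2's size factors, upper quartile scaling and robust moderation, 39, 40 and 36 genes passed, and with the 8 libraries of 6 months or the clock covariate 56 and 53. Leaving out the 3 libraries of lowest clock score, chosen after seeing the data, gave 50 genes, 36 higher and 14 lower. The 2 genes that differed between days 6 and 2 became 10 without the filter, 0 with upper quartile scaling and 0 to 0 with a library left out. The 2 that differed between the ages became 22 without the filter, 11 with DESeq2, 0 with those 3 low-clock libraries left out and 0 to 11 with a library left out. The cause of these shifts was not tested. No named gene that passed changed its direction. The p53 targets that passed were 12, 19 without the filter, 21 with DESeq2 and 4 to 12 with a library left out. Replicate numbers were not shown to pair the libraries (correlations of deviations of 0.00782 and -0.14 over 2 pairs). With a replicate block, 37 genes passed (26 and 11), 33 of them shared with the 39 (lost were Phlda3, Sema5b, Tmem43, Gstm3, Sult2a7 and Gm42790), and 2 between the days and 3 between the ages.

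Over the alternatives, the adjusted p of Cdkn1a ranged from 2.97e-09 to 0.792, that of Gria3 from 5.55e-28 to 0.0145 and that of Oat from 1.25e-05 to 0.409, the lowest being from DESeq2. Depth limits genes near 1 CPM, where a control group holds few counts. The 2 control pools, taken without DEN on no matched day, limit every comparison.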
